A study of Mus musculus with 12 samples.

Results

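The Mos-high pools were 7 of the 12 pools of mouse oocytes sequenced in the study, 3 from females on a high-fat diet (HFD, replicates 4, 5 and 6) and 4 from females on a control diet (CD, replicates 1, 3, 5 and 6). The pools were chosen by 2 measured values, and a pool was kept when Mos reached at least 50 CPM of total gene counts (a count divided by the library's summed gene counts and scaled to a common total) and Zp3 stayed below 1000. The choice thus rests on expression in the same libraries and not on a label. All the females had eaten their diet for 9 weeks, received control feed while they were housed for mating, and were mated with vasectomized males. Oocytes were therefore unfertilised when they were taken 0.5 days after mating, and each library was made from 4 of them. The labels give the feeds the same product code, with the high-fat feed as a modified form of it, so the content of the control feed is uncertain. Strain and age were not given in the sources used here, and the labels name 6 females per diet without saying which female gave which pool. P-values therefore measure the spread between pools, which may be partly technical.

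Mos is a kinase that is made during meiotic maturation and keeps the MAP kinase pathway active, which holds the ovulated egg in metaphase II until fertilisation. The egg is transcriptionally silent at this stage. Its messenger RNA was stored during growth and is used, protected or degraded on a schedule, in part through the length of the poly(A) tail. Gdf9 and Bmp15 encode growth factors secreted by the oocyte, and Zp3 encodes a protein of the egg coat that is made in the growing oocyte. In bulk pools, fewer cells carrying a transcript and less of it per cell cannot be told apart.

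The values that chose the pools are given as a description, with no test. Mos stood at 1453, 620.1 and 115.2 CPM of total gene counts in HFD 4, 5 and 6, and at 408.5, 378.6, 355.3 and 494.6 in CD 1, 3, 5 and 6. The lowest kept value was that of HFD 6, and the highest value under the minimum was 8.41 in HFD 1. HFD 2, CD 2 and CD 4 lay at 4.07, 3.96 and 3.74 CPM, so no pool lay near the minimum of 50. Zp3 reached at most 200.1 CPM among the kept pools, in HFD 5, against 4704 in HFD 3, which was left out although its Mos value was 914.0. Zp3 ranged from 119.4 to 200.1 CPM in the HFD pools and from 48.2 to 117.2 in the CD pools.

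**Figure D1:**
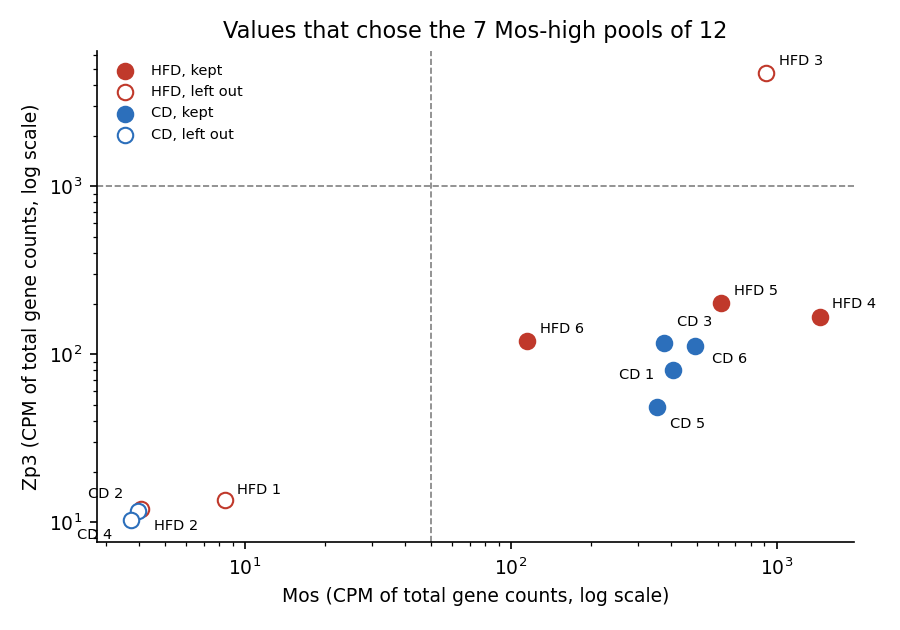
Mos (x axis) and Zp3 (y axis) in all 12 pools, both as CPM of total gene counts on log axes, with HFD in red, CD in blue and kept pools filled. Dashed lines mark the limits of 50 and 1000 CPM. The 4 Mos-low pools lie at 8.41 CPM of Mos or less, and HFD 3 is the only pool above the Zp3 limit.

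Gdf9, the marker named with the rule that the choice did not use, measured 3689 to 8233 CPM of total gene counts in the kept pools and 551 to 559 in the 4 Mos-low pools. Bmp15 did not separate these classes, at 190.0 to 1898 CPM of total gene counts in the kept pools and 440.8 to 768.6 in the Mos-low pools. Within the kept pools Gdf9 did not separate the diets. After scaling with the TMM factors of edgeR, as for every CPM from here on, it was 9582, 5554 and 4650 CPM in HFD 4, 5 and 6 and 5439, 7855, 5597 and 7876 CPM in CD 1, 3, 5 and 6 (log2 fold change -0.02 ± 0.31 SE, edgeR adjusted p = 0.978). Bmp15 was 1004, 292.4 and 239.5 CPM in the HFD pools and 484.0, 1862, 674.6 and 646.6 CPM in the CD pools, with overlapping groups (log2 fold change -0.84 ± 0.59 SE, edgeR adjusted p = 0.438, and -1.82 without HFD 4 or -0.24 without CD 3).

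Gene counts as deposited summed to 9105786 to 11493576 per kept pool, and 12229 to 13008 genes had a count. Pairs of pools of the same diet had a chi-square per degree of freedom of 40.6 to 138.8 over their counts, so none was a copy of another. The first principal component held 37.2% of the variance and placed the HFD pools between 29.0 and 53.0 and the CD pools between -91.1 and -9.46, with CD 3 farthest out. Every count was even in HFD 4 and HFD 6, and also in the left-out HFD 1 and HFD 2. Of the kept HFD pools only HFD 5 had odd counts, as all CD pools did, so even counts and diet can hardly be told apart. If even counts are tallies entered in duplicate, which was not tested, the sums of HFD 4 and HFD 6 would be 4954349 and 5746788, below the 9105786 to 10477316 of the CD pools. With these libraries halved 18 genes passed the threshold of the comparison that follows, the 11 named there included.

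Between the diets, 11 of 10145 tested genes passed an adjusted p of 0.05 in edgeR's quasi-likelihood test, and all 11 were higher in HFD (0.108% of the genes tested). They encode 3 respiratory chain subunits (Ndufa1, Ndufa4 and Ndufb8), a mitochondrial import factor (Timm8b), an RNA polymerase II subunit (Polr2j), an RNA-binding LSm protein (Lsm7), a glutathione S-transferase (Gstm5), a hormone precursor (Gnrh1), an acyl-CoA-binding domain protein (Acbd7), and Serf1 and Ccdc122. Their log2 fold changes (HFD minus CD) ran from 1.66 to 2.84, and for each of them all 3 HFD pools lay above all 4 CD pools. No gene passed in the lower direction (0.0%). At an unadjusted p under 0.05, 1193 genes were higher (11.8%) and 975 lower (9.61%). Without regard to a test, 46.9% of the genes had a log2 fold change above 0, 11.2% had all HFD pools above all CD pools, and 8.44% had all HFD pools below. The spread between pools was wide, with a biological coefficient of variation of 46.3%.

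The number of genes that passed depended on the method and on each pool. DESeq2 called 495 genes higher and 272 lower (6.38% and 3.51% of the genes with an adjusted p), and limma-voom with quality weights called 116 higher and 6 lower (1.14% and 0.0591%). Scaling by total counts alone gave 0 calls, lowered the median of all genes by 0.26 on the log2 scale, and moved the split at an unadjusted p under 0.05 to 594 higher and 1701 lower. Leaving out 1 pool gave 5 calls without HFD 4, 0 without HFD 5, 4 without HFD 6, 78 without CD 1, 4 without CD 3, 2 without CD 5 and 17 without CD 6. Without CD 5 the 2 calls were lower in HFD, and none of the 11 genes passed. A fit of all 12 pools, 6 against 6, called no gene among 9935 (0.0%), where 2215 passed an unadjusted p of 0.05. The 11 genes had a positive log2 fold change in each of these fits, but they were chosen from these same pools. As their groups did not overlap, leaving out a pool could hardly change the sign.

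The respiratory chain transfers electrons to oxygen in the inner mitochondrial membrane, and its nuclear-encoded subunits are imported from the cytosol. Ndufa4 (chr6:11900292-11907497, minus strand, GRCm38), a small subunit now assigned to cytochrome c oxidase, measured 135.8, 356.6 and 130.3 CPM in HFD 4, 5 and 6. In CD 1, 3, 5 and 6 it measured 38.0, 41.6, 46.1 and 53.6 CPM. HFD 5 was the highest pool and the CD pools were close to each other. The log2 fold change was 2.21 ± 0.37 SE (edgeR adjusted p = 0.0302).

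Ndufa1 (chrX:37187588-37191163, minus strand), an accessory subunit of complex I, measured 32.9, 79.3 and 15.6 CPM in HFD 4, 5 and 6 and 7.51, 5.90, 3.22 and 7.16 CPM in CD 1, 3, 5 and 6. The 3 HFD pools spread widely, yet the lowest stood above every CD pool (log2 fold change 2.84 ± 0.51 SE, edgeR adjusted p = 0.0424). Ndufb8 (chr19:44548572-44555440, minus strand), also an accessory subunit of complex I, measured 92.1, 201.4 and 170.0 CPM in the HFD pools and 44.0, 30.8, 26.1 and 58.6 CPM in the CD pools (log2 fold change 1.95 ± 0.37 SE, edgeR adjusted p = 0.0493). A second annotated gene on the same strand, Gm20538, overlaps Ndufb8, so reads could be split between them.

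Timm8b (chr9:50603910-50605320, plus strand) encodes a small chaperone of the intermembrane space that guides membrane proteins during import. It measured 509.3, 448.0 and 599.9 CPM in HFD 4, 5 and 6 and 156.9, 67.3, 114.5 and 184.3 CPM in CD 1, 3, 5 and 6. The lowest HFD pool was above the highest CD pool, and CD 3 was the lowest pool (log2 fold change 1.99 ± 0.34 SE, edgeR adjusted p = 0.0302).

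Polr2j (chr5:136116631-136122947, plus strand) encodes a small subunit of RNA polymerase II. It measured 327.9, 400.8 and 292.8 CPM in the HFD pools and 119.5, 64.1, 73.8 and 112.7 CPM in the CD pools (log2 fold change 1.88 ± 0.31 SE, edgeR adjusted p = 0.0302). Lsm7 (chr10:80852821-80855209, minus strand) belongs to the LSm rings that bind RNA in mRNA decay and splicing. It measured 141.9, 149.5 and 109.5 CPM in the HFD pools and 40.4, 24.8, 26.8 and 55.3 CPM in the CD pools (log2 fold change 1.86 ± 0.35 SE, edgeR adjusted p = 0.0493). For both genes CD 3 was the lowest pool.

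Gstm5 (chr3:107895821-107898686, plus strand), a mu-class glutathione S-transferase, had the smallest p of all genes tested. It measured 118.4, 353.0 and 167.6 CPM in HFD 4, 5 and 6 and 34.9, 29.3, 44.5 and 49.0 CPM in CD 1, 3, 5 and 6. HFD 5 was again the highest pool (log2 fold change 2.43 ± 0.38 SE, edgeR adjusted p = 0.0302). Acbd7 (chr2:3336168-3340993, plus strand) belongs to the family that binds acyl-CoA esters. It measured 32.0, 42.9 and 47.6 CPM in the HFD pools and 6.62, 5.81, 9.57 and 13.5 CPM in the CD pools (log2 fold change 2.20 ± 0.40 SE, edgeR adjusted p = 0.0451).

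Gnrh1 (chr14:67745181-67749439, plus strand), the precursor of gonadotropin-releasing hormone, measured 199.7, 264.4 and 217.6 CPM in the HFD pools and 67.4, 22.8, 53.3 and 60.8 CPM in the CD pools. The HFD pools were close together and CD 3 was the lowest (log2 fold change 2.15 ± 0.36 SE, edgeR adjusted p = 0.0302). Serf1 (chr13:100108012-100114571, plus strand) measured 37.8, 39.4 and 42.3 CPM in the HFD pools and 7.69, 5.15, 6.66 and 13.6 CPM in the CD pools (log2 fold change 2.27 ± 0.41 SE, edgeR adjusted p = 0.0424). Ccdc122 (chr14:77036772-77112257, plus strand) measured 143.1, 132.5 and 134.5 CPM in the HFD pools and 44.97, 33.0, 44.4 and 50.4 CPM in the CD pools (log2 fold change 1.66 ± 0.31 SE, edgeR adjusted p = 0.0475). The library chemistry does not mark strand, and Gstm5, Polr2j, Timm8b, Serf1 and Ccdc122 each overlap an annotated gene on the opposite strand, so their counts are uncertain to that extent. The same holds for some genes named below, among them Gng12, Actn4, Timm9, Anapc10 and Agpat1.

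**Figure D2:**
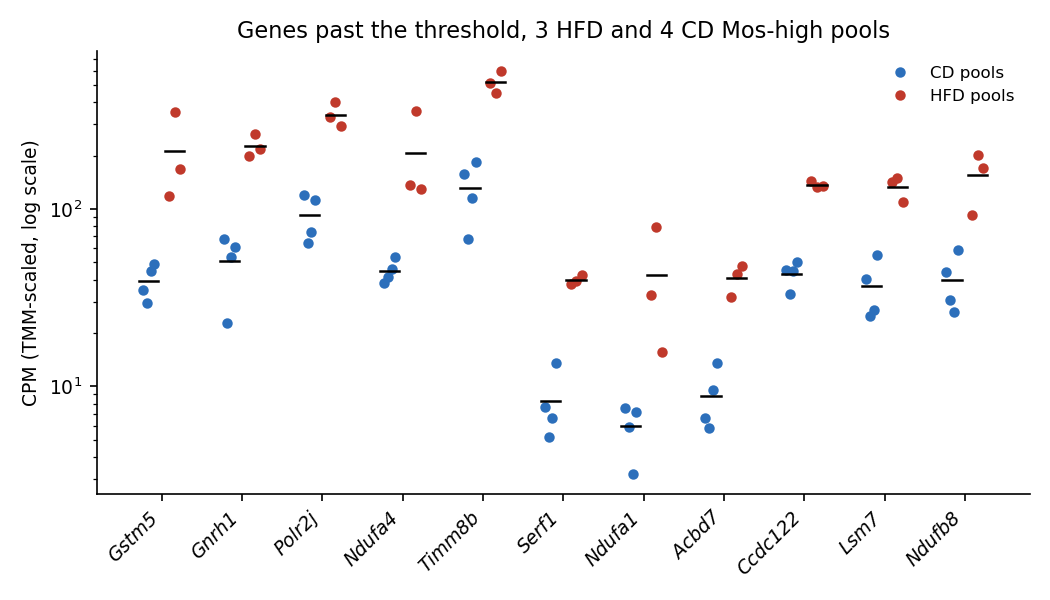
TMM-scaled CPM (y axis, log scale) of the 11 genes past the threshold (x axis, in order of p) in the 4 CD pools (blue) and 3 HFD pools (red), with the mean of each group as a bar. For each gene the lowest HFD pool lies above the highest CD pool, as in Timm8b, where the HFD pools lie at 448.0 CPM or more and the CD pools at 184.3 or less.

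The transcripts of these genes were short. Their longest annotated transcripts ran from 419 to 2142 nt with a median of 610 nt, against a median of 3135 nt over the tested genes. The bases just upstream of the start are part of the promoters of these genes. Windows of 100 bases before the RefSeq start (GRCm38.p6) are printed for 3 of them, 5′ to 3′ on the strand of the gene, with the letters CCGGAAG, a core bound by ETS-family factors, in capitals where either strand holds them. The windows were shown for Polr2j (chr5:136116591-136116690, plus strand) and Timm8b (chr9:50603801-50603900, plus strand), which hold the letters, and for Ndufb8 (chr19:44555443-44555542, minus strand), which does not.
Polr2j: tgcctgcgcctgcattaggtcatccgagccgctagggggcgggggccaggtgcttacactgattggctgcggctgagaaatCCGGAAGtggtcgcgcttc
Timm8b: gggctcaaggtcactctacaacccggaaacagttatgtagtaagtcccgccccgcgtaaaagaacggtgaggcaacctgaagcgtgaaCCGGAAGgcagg
Ndufb8: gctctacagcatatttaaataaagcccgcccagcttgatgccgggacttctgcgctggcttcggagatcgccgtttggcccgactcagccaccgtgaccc
Of the 10 genes with a window, 2 held the letters, and of all 32851 RefSeq windows 1484 held them (4.52%). The first count is of genes and the second of windows. Some genes have several windows, and the windows were not limited to tested genes, so the shares are not directly comparable. A match is a stretch of letters and was not tested as a binding site.

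On the lower side, the 10 genes with the smallest p had log2 fold changes from -2.88 to -1.33, and none passed the threshold (edgeR adjusted p from 0.0538 to 0.0705). Ung, the uracil-DNA glycosylase that starts base excision repair, came nearest. It measured 30.5, 12.5 and 19.1 CPM in HFD 4, 5 and 6 and 98.3, 79.2, 71.1 and 66.5 CPM in CD 1, 3, 5 and 6 (log2 fold change -1.93 ± 0.39 SE, edgeR adjusted p = 0.0538). The groups did not overlap, and the CD pools were close together.

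Gng12, a G protein gamma subunit, measured 95.1, 121.4 and 122.2 CPM in the HFD pools and 407.6, 448.6, 165.5 and 500.9 CPM in the CD pools, of which CD 5 was the lowest (log2 fold change -1.75 ± 0.37 SE, edgeR adjusted p = 0.0562). Actn4, which cross-links actin filaments, measured 32.7, 44.6 and 28.5 CPM in the HFD pools and 88.1, 178.4, 87.6 and 99.4 CPM in the CD pools, with CD 3 highest (log2 fold change -1.68 ± 0.37 SE, edgeR adjusted p = 0.0562). Ppp1r10, a nuclear targeting subunit of a protein phosphatase, measured 73.1, 56.8 and 88.0 CPM in the HFD pools and 161.7, 189.2, 215.9 and 164.3 CPM in the CD pools (log2 fold change -1.33 ± 0.31 SE, edgeR adjusted p = 0.0615). For these 3 genes too no HFD pool reached the lowest CD pool.

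A pair of lysosomal genes stood among these 10. Pla2g15, a lysosomal phospholipase, measured 11.04, 15.8 and 13.6 CPM in the HFD pools and 42.6, 69.4, 32.2 and 31.7 CPM in the CD pools (log2 fold change -1.70 ± 0.40 SE, edgeR adjusted p = 0.0615). Psap, the precursor of the saposins that help degrade sphingolipids, measured 5.64, 3.85 and 3.51 CPM in the HFD pools and 38.2, 43.1, 5.82 and 13.2 CPM in the CD pools, which spread widely (log2 fold change -2.53 ± 0.61 SE, edgeR adjusted p = 0.0675). The other 4 were Tktl2 (log2 fold change -2.38), BC005764 (-2.85), Naa40 (-1.46) and Coro2b (-2.88), and in each of them CD 3 was the highest pool.

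Gene lists were then described by role, each beside the genes as a whole. Over all tested genes the median log2 fold change was -0.06, and 0.108% passed the threshold, all higher in HFD. Of 73 tested nuclear-encoded subunits of oxidative phosphorylation, 67 had a log2 fold change above 0 and 6 below. The median was 1.24, and 39 members had all HFD pools above all CD pools against 2 below, where 11.2% and 8.44% of all tested genes did. The mean of log2 CPM over the members, relative to the CD mean, was 0.99, 1.39 and 1.13 in HFD 4, 5 and 6, and 0.56, -0.67, 0.00 and 0.11 in CD 1, 3, 5 and 6. The groups did not overlap, and CD 1 and CD 3 differed from each other by more than CD 1 differed from any HFD pool. Of the members, 3 passed the threshold (Ndufa1, Ndufa4 and Ndufb8). Of the 6 members below 0, 5 are named here, after their values were seen: Ndufs1 (log2 fold change -1.33), Ndufv1 (-0.97), Atp5a1 (-0.61), Sdha (-0.52) and Atp5b (-0.29).

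Mitochondrial ribosomal proteins, which translate the mitochondrial genome, had 64 of 69 tested members above 0, a median of 0.89 and no call. Mrps14 measured 494.5, 429.4 and 721.4 CPM in the HFD pools and 221.2, 107.9, 170.0 and 266.4 CPM in the CD pools (log2 fold change 1.52 ± 0.33 SE, edgeR adjusted p = 0.0562). Mrpl42 had a log2 fold change of 1.98 ± 0.46 SE (edgeR adjusted p = 0.0615). The list of mitochondrial import had 19 of 25 members above 0, a median of 0.71, and 1 call, Timm8b. Its Timm9, a partner chaperone in the intermembrane space, measured 19.5, 25.8 and 27.0 CPM in the HFD pools and 7.87, 2.44, 8.01 and 5.65 CPM in the CD pools (log2 fold change 2.01 ± 0.45 SE, edgeR adjusted p = 0.0569). Hspa9, the matrix chaperone that pulls precursors in, had the lowest value of that list, -0.77 (chosen after its value was seen). Other mitochondrial lists lay near the genes as a whole. The tricarboxylic acid cycle and pyruvate list had 11 of 23 members above 0 (median -0.09) and the list of mitochondrial dynamics and biogenesis 13 of 26 (median 0.06). The medians of these 2 lists changed sign in 6 and 8 of the alternative settings.

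Cytoplasmic ribosomal proteins had 56 of 57 tested members above 0 with a median of 1.09. All HFD pools lay above all CD pools in 28 members, against 11.2% of all tested genes, although no member passed the threshold. Rps27l, with the smallest p of the list, measured 1048, 904.2 and 1261 CPM in the HFD pools and 380.8, 183.2, 382.6 and 486.5 CPM in the CD pools (log2 fold change 1.58 ± 0.33 SE, edgeR adjusted p = 0.0562). Rpl41 measured 8.22, 32.1 and 5.26 CPM in the HFD pools and 2.59, 2.06, 0.83 and 2.45 CPM in the CD pools (log2 fold change 2.93 ± 0.61 SE, edgeR adjusted p = 0.0562), and without HFD 5 the log2 fold change was 1.75. Processed pseudogenes of ribosomal protein genes may take some of the reads, so these counts are uncertain. LSm, Sm and H/ACA proteins, which sit on small RNAs and on decaying mRNA, had 18 of 20 members above 0, a median of 1.27 and 1 call, Lsm7. Nop10, an H/ACA protein, measured 125.2, 103.3 and 94.5 CPM in the HFD pools and 41.9, 15.3, 21.2 and 39.2 CPM in the CD pools (log2 fold change 1.87 ± 0.38 SE, edgeR adjusted p = 0.0562).

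The proteasome list had a median of 0.59, with 29 of 34 members above 0 and no call. At its top were Psmb2, a core subunit (log2 fold change 1.52 ± 0.35 SE, edgeR adjusted p = 0.0604) and Shfm1, a small lid subunit (1.51 ± 0.37 SE, edgeR adjusted p = 0.0675). The 5 members below 0, again listed after their values were seen, were the activators Psme3 (-1.08) and Psme4 (-0.46) and the large base and lid subunits Psmd1 (-0.69), Psmd2 (-0.85) and Psmd3 (-0.73). The antioxidant list had 20 of 28 members above 0, a median of 0.55 (0.30 without HFD 6) and 1 call, Gstm5. Prdx1, a peroxidase of the cytosol, measured 6167, 3710 and 4446 CPM in the HFD pools and 1965, 1572, 1912 and 2979 CPM in the CD pools (log2 fold change 1.18 ± 0.30 SE, edgeR adjusted p = 0.0718). At the other end of that list was Keap1, the sensor that restrains the antioxidant transcription factor Nrf2, at -1.93 (chosen after its value was seen).

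**Figure D3:**
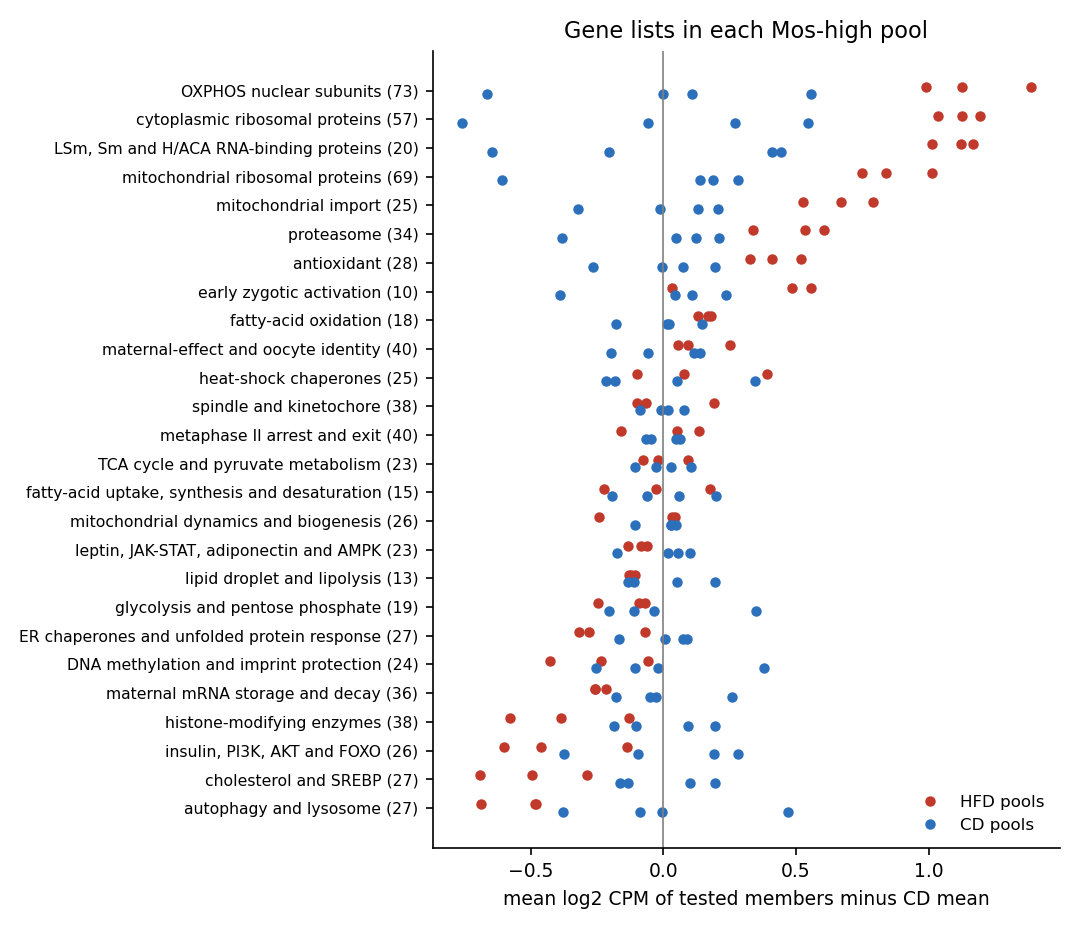
Mean log2 CPM over the tested members of each gene list minus the mean of the CD pools (x axis), 1 point per pool, with HFD in red, CD in blue and the number of tested members in parentheses. Lists with at least 10 tested members are shown, ordered by the HFD mean. In the oxidative phosphorylation list the HFD pools lie from 0.99 to 1.39 and the CD pools from -0.67 to 0.56, and CD 3 has the lowest CD value in each of the 7 topmost lists.

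Lists of the egg itself were divided. Of 40 tested genes of metaphase II arrest and exit, 14 had a log2 fold change above 0 and 26 below, with a median of -0.26 (-0.48 without HFD 4, -0.16 without HFD 6) and no call. Pttg1, which encodes securin, the inhibitor of separase, measured 16320, 11200 and 23840 CPM in the HFD pools and 6585, 4116, 6733 and 8458 CPM in the CD pools. The groups did not overlap (log2 fold change 1.40 ± 0.32 SE, edgeR adjusted p = 0.0572). Anapc10, a subunit of the anaphase-promoting complex, measured 536.8, 421.6 and 683.9 CPM in the HFD pools and 238.9, 128.3, 214.9 and 258.3 CPM in the CD pools (log2 fold change 1.38 ± 0.31 SE, edgeR adjusted p = 0.0572). In the same list, and chosen after their values were seen, Rps6ka1, a kinase downstream of Mos, had -2.39 and Ube2s, a ubiquitin-conjugating enzyme of the anaphase-promoting complex, had -1.13 (edgeR adjusted p = 0.0813 for each). The median of this list changed sign in 1 alternative setting.

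The median of the maternal-effect and oocyte identity list was 0.13, with 22 of 40 above 0, and changed sign in 4 alternative settings, total counts among them. Omt2a and Omt2b, oocyte-specific genes that neighbour each other on chromosome 9, had the smallest p. Omt2b measured 10490, 6627 and 14630 CPM in the HFD pools and 4615, 2501, 3705 and 5536 CPM in the CD pools (log2 fold change 1.37 ± 0.33 SE, edgeR adjusted p = 0.0615). Omt2a had a log2 fold change of 1.36 ± 0.32 SE, but near-identical copies could share reads. For the spindle and kinetochore list the median was -0.02, with 18 of 38 members above 0. Mad2l1, the spindle checkpoint protein, measured 3241, 2234 and 4194 CPM in the HFD pools and 1266, 1291, 1749 and 1957 CPM in the CD pools (log2 fold change 1.04 ± 0.30 SE, edgeR adjusted p = 0.0824).

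Maternal mRNA storage and decay factors had a median of -0.27 with 10 of 36 above 0, and no member had all HFD pools above the CD pools while 5 had them below, against 11.2% and 8.44% of all tested genes. Without CD 5 the median was -0.42. Igf2bp2, an RNA-binding protein of maternal transcripts, measured 130.8, 124.8 and 72.2 CPM in the HFD pools and 171.7, 477.6, 203.0 and 202.2 CPM in the CD pools (log2 fold change -1.27 ± 0.39 SE, edgeR adjusted p = 0.0972). CD 3 carried much of that difference, with a log2 fold change of -0.82 when that pool was left out. Among histone-modifying enzymes 5 of 38 were above 0, and the median was -0.33, or -0.17 without CD 1. Kat7, a histone acetyltransferase, measured 59.0, 66.3 and 65.6 CPM in the HFD pools and 111.0, 317.4, 175.8 and 92.2 CPM in the CD pools (log2 fold change -1.45 ± 0.40 SE, edgeR adjusted p = 0.0810).

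Metabolic and signalling lists that a fat-rich diet might be asked about held no gene past the threshold. For cholesterol and SREBP genes the median was -0.52, or -0.22 without CD 3, with 8 of 27 members above 0. Srebf1, a transcription factor for lipid synthesis, measured 1.88, 1.42 and 0.44 CPM in the HFD pools and 4.83, 11.9, 3.54 and 2.83 CPM in the CD pools, all low (log2 fold change -2.20 ± 0.70 SE, edgeR adjusted p = 0.104). Srebf2, its relative for sterol synthesis, had -2.06 ± 0.67 SE (edgeR adjusted p = 0.109). The list of insulin, PI3K, AKT and FOXO had a median of -0.52 and 4 of 26 members above 0. In that list Rheb, the GTPase that activates mTOR, was an exception above 0, with 756.9, 465.4 and 866.6 CPM in the HFD pools and 313.6, 248.4, 290.9 and 417.3 CPM in the CD pools (log2 fold change 1.13 ± 0.30 SE, edgeR adjusted p = 0.0784). Leptin, JAK-STAT, adiponectin and AMPK genes had a median of -0.12, with 10 of 23 above 0.

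Fatty-acid oxidation had 11 of 18 members above 0 (median 0.31), fatty-acid uptake, synthesis and desaturation 7 of 15 (median -0.14), and lipid droplets and lipolysis 6 of 13 (median -0.04). These 3 medians changed sign in 2, 1 and 5 alternative settings, and with 1 pool left out they ran from 0.09 to 0.36, from -0.59 to -0.01 and from -0.43 to 0.13. Acadm, the medium-chain acyl-CoA dehydrogenase, measured 190.7, 148.4 and 196.3 CPM in the HFD pools and 85.6, 76.5, 132.2 and 78.3 CPM in the CD pools (log2 fold change 0.94 ± 0.31 SE, edgeR adjusted p = 0.117). Fabp5, a fatty-acid-binding protein, measured 243.8, 138.8 and 202.9 CPM in the HFD pools and 62.9, 39.8, 95.8 and 80.7 CPM in the CD pools (log2 fold change 1.48 ± 0.34 SE, edgeR adjusted p = 0.0615). Acsl3, an acyl-CoA synthetase that activates fatty acids, measured 446.1, 516.7 and 545.9 CPM in the HFD pools and 260.3, 275.4, 307.8 and 319.3 CPM in the CD pools. Its groups did not overlap, but the difference was smaller (log2 fold change 0.79 ± 0.27 SE, edgeR adjusted p = 0.127). Utp14b, annotated on the same strand, overlaps Acsl3, so reads could be split between these genes. The other of the 2 members of smallest p was lower in HFD in each of these 3 lists. These were Slc22a5 (log2 fold change -1.36 ± 0.55 SE, edgeR adjusted p = 0.170) and Agpat1 (-1.17 ± 0.48 SE, edgeR adjusted p = 0.175). The last was Lipe, at 2.25 CPM or less in every kept pool (-2.10 ± 1.03 SE, edgeR adjusted p = 0.245). Autophagy and lysosome genes had 7 of 27 members above 0, a median of -0.71, and 12 members with all HFD pools below all CD pools against 3 above. Over all tested genes these shares were 8.44% below and 11.2% above, so the 3 above are at the level of the genes as a whole.

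In stress lists, endoplasmic reticulum chaperones and the unfolded protein response had 10 of 27 members above 0 (median -0.43, or -0.17 without CD 3 and -0.28 without CD 1), with Derl1, a factor of protein export from the reticulum, at 2.11, 2.13 and 1.76 CPM in the HFD pools and 6.08, 8.43, 8.53 and 4.24 CPM in the CD pools (log2 fold change -1.76 ± 0.53 SE, edgeR adjusted p = 0.0965). Heat-shock chaperones had 11 of 25 above 0 (median -0.06), glycolysis and the pentose phosphate pathway 8 of 19 (median -0.06), and DNA methylation and imprint protection 11 of 24 (median -0.32, or from -0.56 without HFD 5 to -0.08 without CD 1). The early zygotic activation list had 8 of 10 above 0 and a median of 0.54 (0.82 without HFD 5). Its smallest p was that of Obox5, with a log2 fold change of 0.75 ± 0.29 SE (edgeR adjusted p = 0.160). Klf17, with the next smallest p, was lower in HFD (-0.67 ± 0.32 SE, edgeR adjusted p = 0.237). The highest log2 fold change of the list was 1.24 in Tcstv3, chosen after its value was seen. Of the 31 lists, 13 kept the sign of their median in every alternative setting. These were the 6 of respiratory subunits, ribosomes, proteasome, import and LSm proteins, with the antioxidant and early zygotic lists above 0, and mRNA storage, cholesterol, insulin, autophagy and histone lists below 0.

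Transcript length moved with the same difference between diets. When the tested genes were divided into 5 classes by their longest transcript, the median log2 fold change was 0.72 for transcripts of 76 to 1774 nt, 0.02 for 1775 to 2674 nt, -0.30 for 2675 to 3692 nt, -0.36 for 3693 to 5212 nt and -0.33 above that. In the shortest class 698 genes were higher and 24 lower at an unadjusted p under 0.05, and in the longest class 55 were higher and 207 lower. The slope of log2 CPM on log2 length was -0.21, -0.12 and -0.25 in HFD 4, 5 and 6 and 0.14, 0.40, 0.01 and 0.05 in CD 1, 3, 5 and 6. The groups did not overlap. The difference of means had the smallest p that a two-sided exact permutation test of 3 against 4 pools allows (p = 0.0286, 0.114 after Benjamini-Hochberg adjustment over 12 measures).

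**Figure D4:**
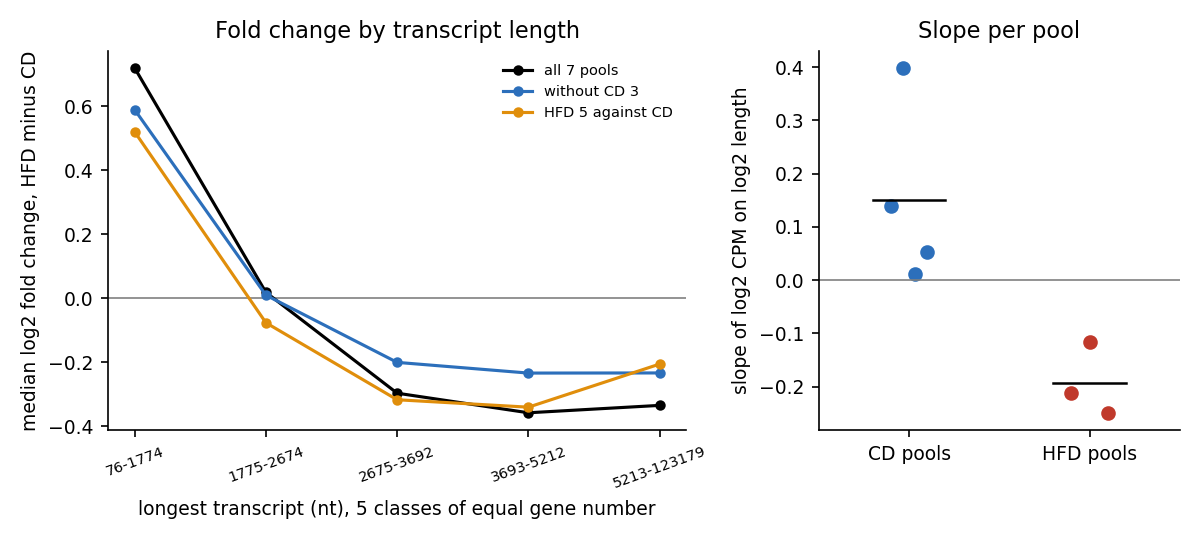
Left, median log2 fold change (y axis, HFD minus CD) in 5 length classes of equal gene number (x axis, longest transcript in nt), for all 7 pools, without CD 3, and for HFD 5 alone against the CD pools. Right, slope of log2 CPM on log2 length in each pool, with group means as bars. The shortest class stands at 0.72 with all pools, at 0.59 without CD 3 and at 0.52 for HFD 5, and the slopes are below 0 in the HFD pools and above 0 in the CD pools.

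With the length trend removed from each pool, no gene passed (smallest edgeR adjusted p = 0.0948, 1537 genes at an unadjusted p under 0.05). The 11 genes then had log2 fold changes from 0.73 (Timm8b) to 1.86 (Ndufb8), all above 0. The list medians fell to 0.43 for oxidative phosphorylation, 0.27 for cytoplasmic ribosomal proteins, 0.33 for mitochondrial ribosomal proteins, 0.13 for the proteasome, 0.21 for mitochondrial import, 0.20 for antioxidants, 0.19 for early zygotic genes and 0.44 for LSm proteins, against -0.03 over all genes. The lists with a median below 0 in every setting also came nearer to 0. They stood at -0.34 for cholesterol, -0.24 for insulin, -0.39 for autophagy and lysosome, -0.16 for histone-modifying enzymes and -0.18 for mRNA storage. Not every median moved that way. Glycolysis went from -0.06 to -0.34 and lipid droplets from -0.04 to -0.22. Medians turned to -0.15 for maternal-effect and oocyte identity, -0.19 for mitochondrial dynamics and -0.01 for fatty-acid oxidation. They turned to 0.10 for fatty-acid uptake, 0.04 for spindle and 0.06 for heat-shock genes. The gradient was also present without the even-count pools, where HFD 5 against the CD pools gave 0.52 in the shortest class and -0.21 in the longest.

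The counter's tallies also differed between the diets. Reads aligned to more than 1 place made up 26.8%, 27.5% and 27.9% of the tallied reads in HFD 4, 5 and 6 and 23.3%, 18.6%, 23.2% and 22.4% in CD 1, 3, 5 and 6, without overlap (exact permutation p = 0.0286, adjusted 0.114). Reads assigned to no gene made up 66.5% to 67.3% in the HFD pools and 62.3% to 65.1% in the CD pools (exact permutation p = 0.0286, adjusted 0.114). This share includes the reads aligned to more than 1 place and is not a separate measure. The difference of means was 2.95 percentage points for it and 5.54 for the multiply aligned reads. The remaining unassigned reads were thus a smaller share on average in HFD. The 50 highest genes took 31.7% to 37.5% of counts in the HFD pools and 26.0% to 31.3% in the CD pools (exact permutation p = 0.0571). The part of these measures in the gene differences was not tested.

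The summed markers of other cell types, here in CPM of total gene counts, passed no test between the diets. Of 32 cumulus and granulosa markers, 14 were at 0 in all 7 pools, among them Amh, Inha, Ptx3 and Fst, and the summed level was 673 to 1556 CPM in the HFD pools and 896 to 1370 in the CD pools, most of it Serpine2. For oviduct epithelium, 7 of 16 markers were at 0, among them Pax8, Krt7 and Krt18, and the sums were 44.2 to 113.9 CPM against 49.6 to 219.7, with Cdh1 the highest. For blood and immune cells, 13 of 18 were at 0, Ptprc and the haemoglobins included, and the sums were 177.1 to 262.1 CPM against 187.4 to 265.5, nearly all of it Ms4a1. For stroma, muscle and endothelium, 5 of 19 were at 0, Col1a1 and Col3a1 among them, while 10 reached 1 CPM in some pool. Pecam1 was the highest, at up to 144.8 CPM. The sums were 47.9 to 71.9 CPM against 78.9 to 194.8, where the CD pools were the higher without overlap and CD 3 stood apart. For sperm and male germ cells, 8 of 18 were at 0, and the sums were 43.8 to 69.8 CPM against 66.0 to 134.9. Likewise 1 CPM was reached by 8 cumulus and granulosa, 5 oviduct, 3 blood and immune, and 5 sperm and male germ cell markers. The exact permutation p of these 5 sums, on the difference of means, ran from 0.200 to 0.857, and their part in the gene differences was not tested.

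Whether the diet difference was particular to the Mos-high pools was asked by fitting 11 pools in 4 cells, the 7 kept pools with the 4 Mos-low pools (HFD 1 and 2, CD 2 and 4), and testing the difference between the diet effects. Of 11558 genes, 2 passed (0.0173%), and 612 had an unadjusted p under 0.05 (5.3%). None of the 11 genes was among the 2. Their difference between Mos classes had an edgeR adjusted p of 0.917 or more, and their log2 fold changes in the Mos-low pools were 0.60 (Gnrh1) to 2.92 (Ndufa1), all above 0, with 2 pools per diet. Both Mos-low HFD pools held only even counts, whereas both Mos-low CD pools held odd ones. Diet and even counts therefore cannot be told apart within the Mos-low class. The halved counts were not run for the interaction. In each of the 11, HFD 1 was above HFD 2. Ndufa1, for example, measured 17.6 and 0.90 CPM in the Mos-low HFD pools against 1.43 and 0.97 CPM in the Mos-low CD pools, where HFD 2 was below both CD pools. HFD 2 was also below both for Gstm5 (130.6 against 134.5 and 183.6 CPM). It lay between them for Polr2j and Serf1, and above both for the other genes. Gnrh1 had the largest difference of the 11 between classes, 1.53 ± 0.55 SE, with 452.1 and 250.6 CPM in the Mos-low HFD pools and 236.5 and 226.9 CPM in the Mos-low CD pools.

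The 2 genes that passed were outside the rule for named genes and are named because there were only 2. Blvra, which encodes biliverdin reductase, measured 507.1, 422.7 and 548.5 CPM in the Mos-high HFD pools and 255.8, 213.2, 283.7 and 369.8 CPM in the Mos-high CD pools. In the Mos-low pools it measured 33.8 and 30.8 CPM with HFD and 143.0 and 197.0 CPM with CD. The log2 fold change was 0.81 in the Mos-high and -2.40 in the Mos-low pools, a difference of 3.21 ± 0.45 SE (edgeR adjusted p = 0.00481). Btla, an inhibitory receptor of lymphocytes, measured 8.44, 11.8 and 25.6 CPM in the Mos-high HFD pools and 29.6, 89.4, 56.0 and 34.1 CPM in the Mos-high CD pools. In the Mos-low pools it measured 35.5 and 51.9 CPM with HFD and 0.95 and 1.83 CPM with CD. The difference was -6.75 ± 0.84 SE (edgeR adjusted p = 0.00175). Btla passed in each of the 11 fits that left out 1 pool, whereas Blvra no longer passed without HFD 1 or without HFD 2. In the Mos-low pools by length class the median log2 fold change was 0.41 for the shortest transcripts and -0.01 for the longest.

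**Figure D5:**
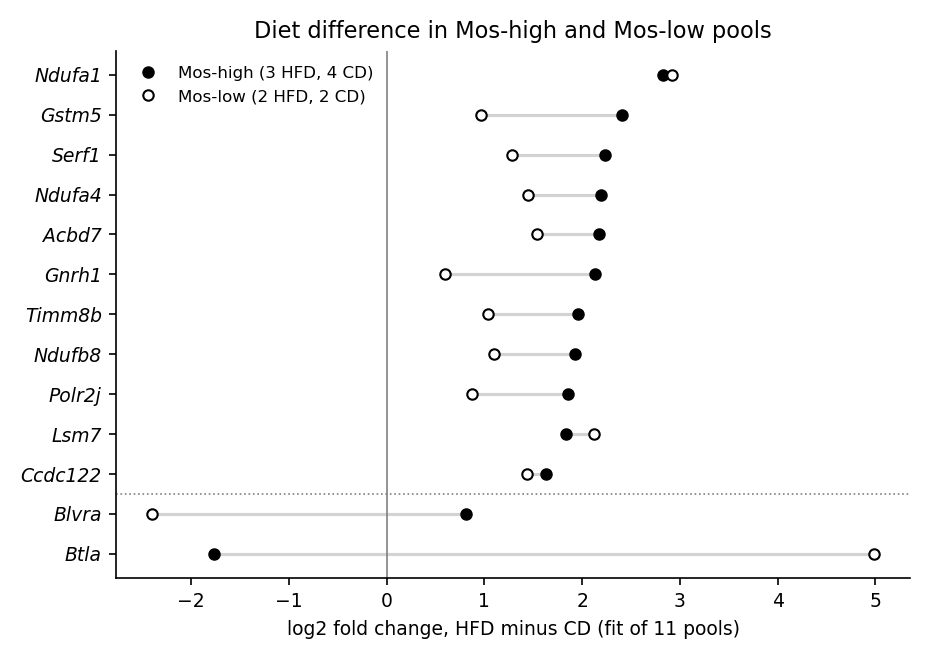
Log2 fold change (x axis, HFD minus CD, from the fit of 11 pools) in the Mos-high pools (filled) and Mos-low pools (open) for the 11 genes past the threshold in the Mos-high pools and, below the dotted line, Blvra and Btla. The 11 genes lie above 0 in both classes, whereas Blvra (0.81 and -2.40) and Btla (-1.77 and 4.98) have opposite signs.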

How the data were processed

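RNA-seq was measured in 12 pools of 4 oocytes, with template-switching cDNA and tagmented libraries per the labels' protocols. The table the authors deposited held raw counts (whole numbers) for 24062 gene symbols. The tools STAR, HTSeq 1.0.0 and DESeq2 1.0.19 and the build mm10 are named per the submitters' processing notes. Not given in the sources used here were the annotation, the STAR version and the counter's options. The 5 tally lines stayed out of library sizes and tests, and made up 62.3% to 67.3% of tallied reads in the kept pools. Reads carried no molecular identifiers.

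Pools were chosen by CPM of total gene counts (Mos at least 50, Zp3 below 1000). The 7 kept pools were compared with edgeR 4.0.16 under R 4.3.3 (TMM, default low-count filter, robust quasi-likelihood test, Benjamini-Hochberg over 10145 genes, threshold 0.05). Standard errors were derived from F and the fold change, and log2 CPM used a prior count of 2. The interaction used the same test over 11 pools. Library measures used two-sided exact permutation tests over 35 assignments (scipy 1.17.1, Python 3.11.15). Alternatives used DESeq2 1.42.0 and limma 3.58.1. The fit was tested on simulated data. Genes and transcript lengths came from GENCODE M21 (GRCm38), which matched 23622 symbols and not the other 440. A length was found for 99.1% of the tested genes.

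Genes were named from those past the threshold, up to 12 per direction, or the 10 smallest p where fewer than 10 passed. Added to these were the 2 members of smallest p of each list, and Gdf9 and Bmp15. Not all of these list members are printed above. Unnamed predicted genes were passed over, and any other gene is said to be chosen after its value was seen. The pools and the 31 lists were chosen with earlier results of these data known. The value of 1 list member is not reported here.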

Additional observations from a re-analysis of the deposited data

Results flagged for a closer look

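In the group of 4 CD pools, 91 sets of values were examined for a pool far from the others, and 10 were found, where chance alone marks about 1 set in 20. CD 3 was the pool apart in 9 of them. It was the highest in Actn4 at 178.4 CPM, Igf2bp2 at 477.6 CPM, Slc22a5 at 24.63 CPM, Syvn1 at 67.42 CPM, Smug1 at 243.7 CPM, Pecam1 at 142.1 CPM and Bmp15 at 1862 CPM, and in the summed stroma, muscle and endothelium markers at 194.8 CPM. It was the lowest in Gapdhs at 0.8428 CPM. CD 5 was the highest in Acadm at 132.2 CPM. The 3 HFD pools were too few for this check.

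The diet effect differed between Mos-high and Mos-low pools in the test of the difference itself for Blvra, by 3.208 on the log2 scale, and for Btla, by -6.753. Every Mos-low group held 2 pools, and in that class diet and even counts cannot be told apart.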

How the results depend on the processing

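The 11 genes kept a positive log2 fold change in every alternative, which was largely given in advance, as they were chosen from these same pools. The number of genes past the threshold did not hold. It was 11 with DESeq2's size factors, 0 with total counts, 750 with no filter on low counts, 271 with a minimum of 10 CPM in 3 pools, 767 with DESeq2, 122 with limma-voom, 133 with 12 pools in 5 classes, 0 with 12 pools as 6 against 6, 18 with the all-even libraries halved and 0 with the length trend removed. Leaving out 1 pool gave 0 to 78. Keeping only libraries with odd counts, chosen after seeing the data, gave 13 calls, 3 of them among the 11 genes, with HFD 5 alone assumed to vary like the CD pools. A replicate block over the labels' numbers gave 31 calls, 7 of them among the 11 genes, and 7 calls for the interaction. Only numbers 5 and 6 are shared, and the deviations of same-numbered pools correlated at -0.11 and 0.00, so the numbers are not treated as pairing the pools. The interaction gave 3 calls with total counts, 10 with DESeq2, and 1 to 5 with 1 pool left out. Of the library measures, 3 had an unadjusted exact p under 0.05 with all pools and 0 with any pool left out, where the smallest possible p is 0.0667 or 0.1. Over the named genes, 1176 values under an alternative stayed on their side of the threshold, 168 newly passed and 95 no longer passed. The deposited totals of HFD 4 and HFD 6 may overstate their depth, as all their counts are even.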
